A study of Mus musculus with 18 samples.

Results

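The embryonic sarcomere and synapse genes are 10 mouse genes chosen by name: Actc1, Myh3, Myh8, Myl4, Myl1, Tnnt1, Tnnt2, Des, Chrna1 and Xirp2. All 10 were found in the deposited table, and 9 of them held values, out of 10792 genes with values among 47729 listed. Tnnt2, the cardiac troponin T that embryonic skeletal muscle also uses, had no value in any library and is named only. The libraries were of RNA from satellite cells, the stem cells that lie along muscle fibres, sorted by surface VCAM1 and by lack of CD31, CD45 and Sca1. The C57BL/6 mice were 8.5 to 9 months old, and the muscles came from the hind limb. Activated cells of pregnant mice gave 6 libraries and activated cells of virgin mice gave 6, non-activated cells of pregnant mice gave 3 and non-activated cells of virgin mice gave 3. Activated cells were read as those of muscle pierced with a needle of gauge 23, since the protocols speak of injured and non-injured animals. Libraries of injured animals were made after poly-A selection and those of non-injured animals from total RNA with ribosomal RNA depletion, so activation and the library kit cannot be told apart in any comparison of activated with non-activated cells. No genotype or agent other than pregnancy and injury is stated, and the strain, age range and sort are shared by all groups. The stage of pregnancy, the time after injury and whether each library is a separate animal are not given in the labels, so each p-value reflects library-to-library spread alone, which may be technical.

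Skeletal muscle cells build their contractile unit, the sarcomere, from myosin thick filaments and actin thin filaments, and while they differentiate they use embryonic and cardiac members of these families before the adult ones. A proliferating satellite cell makes little of them, and the transcription factors Myod1 and Myog switch the genes on as the cell commits to fusion. The muscle acetylcholine receptor is made along the whole young fibre before nerve contact gathers it at the synapse. Myod1 and Myog bind the E-box, written CANNTG, while serum response factor binds the CArG box and MEF2 factors bind their own AT-rich site.

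The promoters of Actc1, Myh3, Chrna1 and Xirp2 are shown because the results below turn on these 4 genes, which differ in which motif they hold. Each window runs from 250 bases before the annotated start to 50 bases from it, 300 bases in all, from RefSeq on GRCm38.p6, 5′ to 3′ on the strand of the gene. Capitals mark E-boxes, CArG boxes and MEF2 sites found on either strand. The windows lie at chr2:114052826-114053125 on the minus strand for Actc1, chr11:67078050-67078349 on the plus strand for Myh3, chr2:73580289-73580588 on the minus strand for Chrna1 and chr2:67445752-67446051 on the plus strand for Xirp2.
Actc1: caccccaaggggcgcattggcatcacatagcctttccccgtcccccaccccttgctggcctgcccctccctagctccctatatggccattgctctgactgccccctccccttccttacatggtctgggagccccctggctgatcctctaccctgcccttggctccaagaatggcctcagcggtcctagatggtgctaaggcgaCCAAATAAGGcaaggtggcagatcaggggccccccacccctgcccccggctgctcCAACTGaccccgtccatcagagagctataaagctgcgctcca
Myh3: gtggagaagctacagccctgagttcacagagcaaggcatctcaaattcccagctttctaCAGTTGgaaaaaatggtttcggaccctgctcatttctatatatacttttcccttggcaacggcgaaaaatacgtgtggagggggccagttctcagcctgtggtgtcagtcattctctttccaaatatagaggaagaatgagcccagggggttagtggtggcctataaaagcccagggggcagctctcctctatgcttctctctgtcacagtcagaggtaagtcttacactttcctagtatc
Chrna1: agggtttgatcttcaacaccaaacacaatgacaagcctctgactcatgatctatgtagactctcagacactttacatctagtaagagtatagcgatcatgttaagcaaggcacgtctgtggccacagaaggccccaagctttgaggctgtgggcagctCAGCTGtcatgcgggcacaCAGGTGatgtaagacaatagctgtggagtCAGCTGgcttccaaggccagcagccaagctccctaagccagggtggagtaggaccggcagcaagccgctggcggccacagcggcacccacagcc
Xirp2: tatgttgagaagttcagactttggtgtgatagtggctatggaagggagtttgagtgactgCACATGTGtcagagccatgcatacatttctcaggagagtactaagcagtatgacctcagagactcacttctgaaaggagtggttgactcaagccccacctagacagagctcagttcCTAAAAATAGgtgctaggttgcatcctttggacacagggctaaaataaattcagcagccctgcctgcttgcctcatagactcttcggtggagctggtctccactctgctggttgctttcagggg

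The Chrna1 window held 3 E-boxes, which began 92, 73 and 44 bases before the start, and the outer 2 of them have GC at the centre. Actc1 was the single member with a CArG box, which began 47 bases before the start, and its E-box began at base 9 after it. The Actc1 window lies wholly inside the gene span given with the deposited counts, as do those of Myl1 and Tnnt1. For these genes the positions hold for the RefSeq start only. Myh3 had 1 E-box, 191 bases before the start, and a TATA element 29 bases before it. Xirp2 had 2 overlapping E-boxes, which began 190 and 188 bases before the start, and a MEF2 site that began 74 bases before it. Of the 10 members, each of which matched a window by symbol, 9 held an E-box, while 72.3% of all 32851 windows did.

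The E-box form with GC at the centre, CAGCTG, which the E-box search also counts, stood in 4 members and in 16.3% of all windows, and the TATA element, searched as TATAAA on either strand, in 5 members and 13.6%. The TATA match began 29 bases before the start in Myh3 and 30 in Tnnt1. In Myl1 and Myh8 it began 95 and 96 bases before the start and lay on the opposite strand, and in Actc1 it began at base 34 after the start. The CArG box stood in 1 member and 1.63% of windows, and the MEF2 site in Myh8 and Xirp2 and in 3.19%. In Myh8 the TATA element overlapped the MEF2 site. Tnnt2 had 2 annotated windows, and a match in either was counted. A match is a description of letters only, and binding was not measured.

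**Figure D1:**
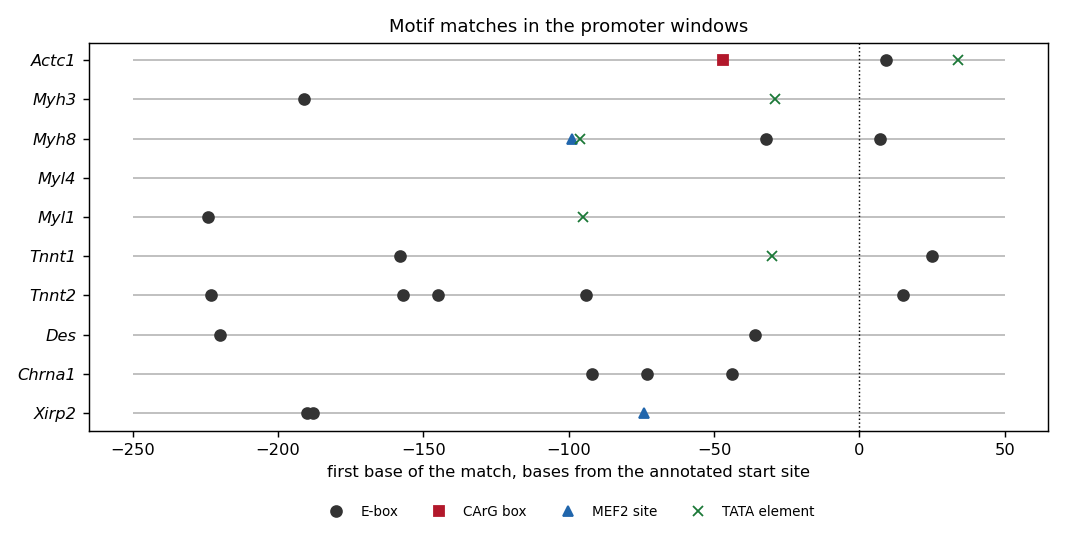
Positions of motif matches in the promoter windows of the 10 genes, as bases from the annotated start site (dotted line) to the first base of the match, with 1 grey line per gene and the first annotated window of Tnnt2. Chrna1 holds 3 E-boxes within 92 bases of its start, Actc1 holds the single CArG box, and Myl4 holds none of the motifs.

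Total counts per library ran from 14043324 to 19904594 in activated cells of pregnant mice, 15144397 to 20500462 in activated cells of virgin mice, 15066225 to 21626336 in non-activated cells of pregnant mice and 17903943 to 24336842 in non-activated cells of virgin mice. Levels below are the authors' normalized counts per gene, which are not divided by gene length, so levels are compared between libraries and never between genes. Satellite cell markers were present in every library: Pax7 ran from 4555 to 8159 normalized counts over the activated libraries and from 11240.5 to 20831 over the non-activated ones, and no marker with a value was at 0 in a whole group. A count of 0 in a library allows up to 3 counts there, and this covers counting error only.

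The embryonic myosin heavy chain was nearly absent from non-activated cells and present in all activated libraries. Its gene, Myh3 (ENSMUSG00000020908, GRCm38 chromosome 11, 67078300 to 67102291, plus strand), had 408, 754, 193, 624.9, 794 and 1238 normalized counts in replicates 1 to 6 of activated cells of pregnant mice, and 16.3, 0 and 0 in non-activated cells of pregnant mice. In virgin mice Myh3 had 2054, 1232, 838, 627, 692 and 641 in activated cells and 0, 0.769 and 31.3 in non-activated cells. No activated library came near a non-activated one. The log2 change of Myh3 was 7.80 ± 0.95 (SE) in pregnant mice and 7.89 ± 0.95 in virgin mice, with limma adjusted p = 6.21e-07 and 4.80e-07. These sizes rest on a few reads in single non-activated libraries. In pregnant mice the log2 change was 7.12 without non-activated replicate 2 or 3, and without replicate 1 the remaining 2 libraries held no read of Myh3, so that its fitted 9.17 depends on the pseudocount, and in virgin mice it was 6.92 without non-activated replicate 1 and 9.43 without replicate 3. In bulk samples such as these, fewer cells of a type and less RNA per cell cannot be told apart.

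Myh8, the perinatal myosin heavy chain whose gene lies on chromosome 11 as Myh3 does (ENSMUSG00000055775, 67277124 to 67308634, plus strand), stayed low everywhere. It had 12.1, 20.6, 12.6, 37.1, 40.1 and 30.1 normalized counts in activated cells of pregnant mice, against 25.7, 1.18 and 36.6 in non-activated cells of pregnant mice. In virgin mice it had 57.9, 23.3, 25.7, 25.5, 8.14 and 9.32 in activated cells and 1.96, 9.23 and 9.25 in non-activated cells. The groups overlapped in both comparisons and neither change passed the test, at 0.88 ± 0.81 in pregnant mice (SE, limma adjusted p = 0.338) and 1.66 ± 0.81 in virgin mice (adjusted p = 0.0747). Myh8, Myl1 and Tnnt1 passed in virgin mice under total-count and upper-quartile scaling and in a fit of the 2 groups alone.

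Of the essential myosin light chains, Myl1, the fast skeletal form (ENSMUSG00000061816, chromosome 1, 66924295 to 66945404, minus strand), was higher in activated cells of pregnant mice, with 112, 184, 57.0, 279, 170.3 and 252 normalized counts against 1.72, 37.6 and 0 in non-activated cells of pregnant mice. The log2 change was 5.05 ± 0.78 (SE, limma adjusted p = 1.11e-05), or 6.57 without non-activated replicate 2 and 3.93 without replicate 3. In virgin mice Myl1 had 296, 317, 184, 134, 167 and 149 in activated cells and 117, 52.3 and 42.0 in non-activated cells, which did not overlap. Its log2 change there was 1.61 ± 0.78 and did not pass (adjusted p = 0.0709). Myl4, the light chain of the embryo and the atrium (ENSMUSG00000061086), did not follow Myh3: it had 110.4, 166, 94.7, 194, 175 and 253 in activated cells of pregnant mice against 142, 430.3 and 118 in non-activated cells, and 257, 194, 174, 102, 139.9 and 124 in activated cells of virgin mice against 384, 121 and 269. Both log2 changes were below 0, at -0.30 ± 0.43 in pregnant mice (adjusted p = 0.542) and -0.55 ± 0.43 in virgin mice (adjusted p = 0.2503), and neither passed.

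**Figure D2:**
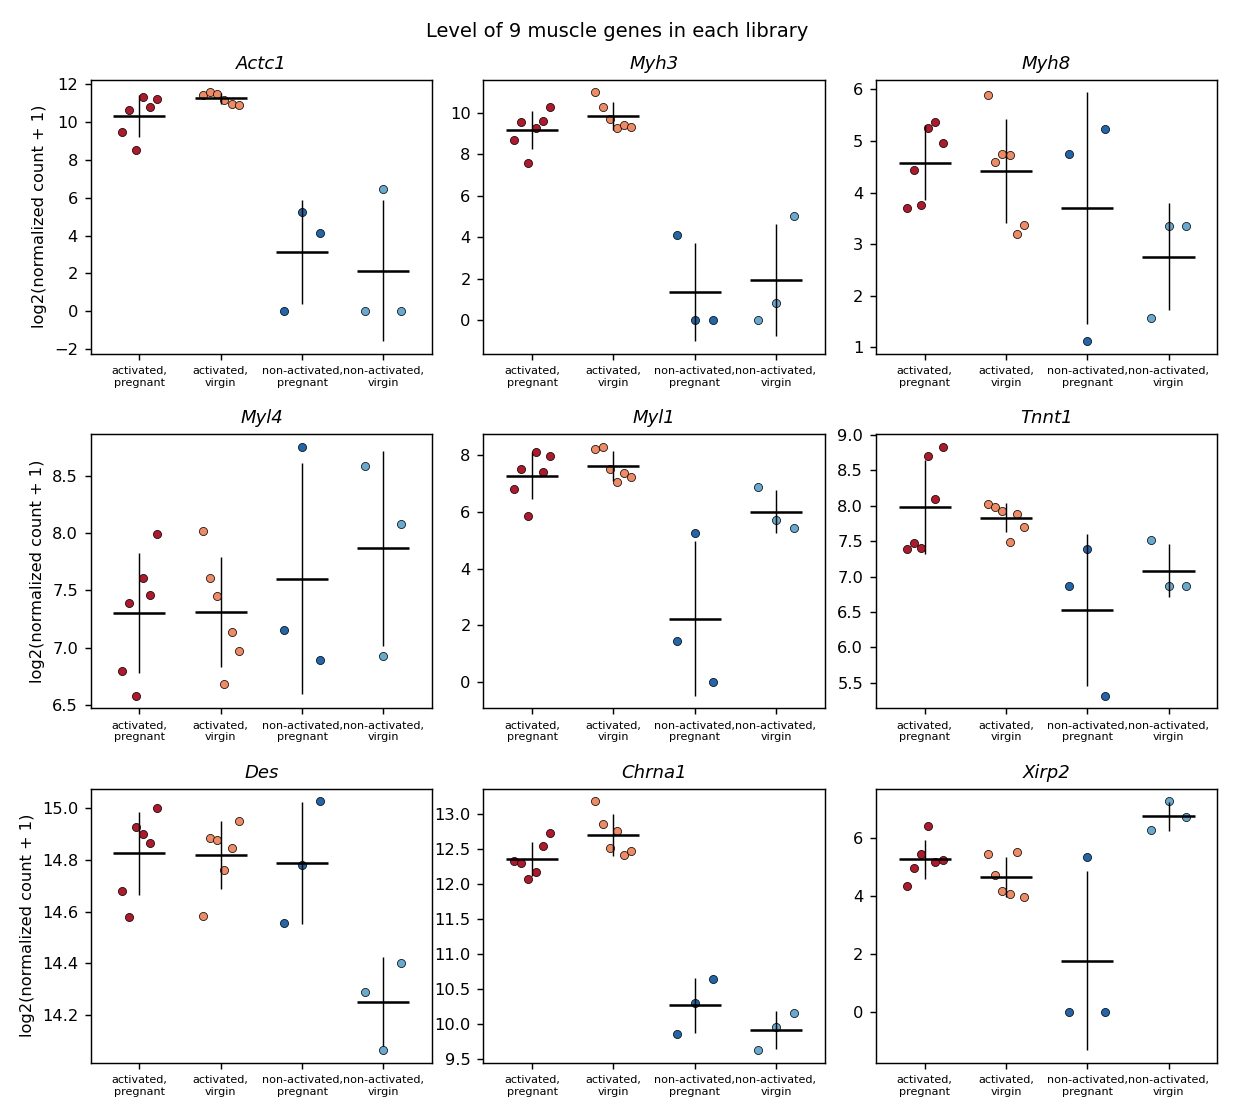
Level of the 9 genes with values in each library, as log2(normalized count + 1); points are libraries, horizontal bars the mean and vertical lines the SD over 6 activated or 3 non-activated libraries. Actc1, Myh3 and Chrna1 are higher in every activated library than in any non-activated one, Myl4 and Myh8 overlap between the groups, and the 3 non-activated libraries of virgin mice are the highest group for Xirp2.

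On the thin filament, Actc1, the actin of the heart and of embryonic skeletal muscle (ENSMUSG00000068614, chromosome 2, 114047282 to 114053548, minus strand), had 711, 1579, 362, 2540.4, 1741 and 2376 normalized counts in activated cells of pregnant mice and 0, 36.4 and 16.6 in non-activated cells of pregnant mice. In virgin mice it had 2739, 3046, 2826, 2299, 1956 and 1899 in activated cells and 0, 86.9 and 0 in non-activated cells. The groups were far apart in both. Its log2 change was 7.19 ± 1.17 in pregnant mice (SE, limma adjusted p = 2.03e-05) and 9.09 ± 1.17 in virgin mice (adjusted p = 1.08e-06). In pregnant mice the change was 5.63 without non-activated replicate 1 and 8.25 without replicate 2. In virgin mice it was 8.01 without non-activated replicate 1 or 3, and without replicate 2 the remaining 2 libraries held no read of Actc1, so that its fitted 11.24 depends on the pseudocount. The ratio of Actc1 to Acta1, the adult skeletal actin, could not be formed because Acta1 had no value.

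Tnnt1, the slow skeletal troponin T (ENSMUSG00000064179, chromosome 7, 4504570 to 4516382, minus strand), had 166, 177, 169, 418, 273 and 456 normalized counts in activated cells of pregnant mice against 116, 167 and 38.8 in non-activated cells, and its log2 change, 1.46 ± 0.39 (SE), passed at a limma adjusted p = 0.00272. The lowest activated library, at 166.3, lay just under the highest non-activated one, at 167.0, and the change was 0.86 without non-activated replicate 3. When the trend of each library with genomic span was removed, the call was lost. In virgin mice it had 258, 253, 242, 178, 235 and 207 in activated cells and 183, 115 and 116 in non-activated cells, and the change of 0.75 ± 0.39 did not pass (adjusted p = 0.0948). Tnnt3, the fast troponin T, had a mean of 266 ± 118 (SD, n = 6) in activated cells of pregnant mice and 132 ± 38.4 (SD, n = 3) in non-activated cells, which did not pass (adjusted p = 0.171). In virgin mice Tnnt3 passed at 1.51 ± 0.59 (SE, adjusted p = 0.0283), with 316 ± 95.9 (SD, n = 6) against 183 ± 194 (SD, n = 3), but the call was lost in 6 of 19 alternatives, among them those without activated replicate 1 or non-activated replicate 1, and the change was 0.44 without non-activated replicate 1 and 2.45 without replicate 2.

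Chrna1, the alpha subunit of the muscle acetylcholine receptor that binds acetylcholine (ENSMUSG00000027107, chromosome 2, 73563215 to 73580338, minus strand), rose in both comparisons. It had 5143, 5022, 4283, 4616, 5941 and 6794 normalized counts in activated cells of pregnant mice and 928, 1253 and 1601 in non-activated cells of pregnant mice. In virgin mice it had 9298, 7426, 5834, 6909, 5438 and 5671 in activated cells and 789, 992 and 1141 in non-activated cells. The lowest activated library stood above the highest non-activated one in both comparisons. The log2 change was 2.09 ± 0.19 in pregnant mice (SE, limma adjusted p = 9.63e-09) and 2.78 ± 0.19 in virgin mice (adjusted p = 1.34e-10). Leaving out any 1 library moved it within 1.89 to 2.28 in pregnant mice and within 2.64 to 2.91 in virgin mice. The gamma and epsilon subunits, Chrng and Chrne, which mark the embryonic and the adult receptor, had no value, so the receptor type was not analysed here.

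Des, which encodes the intermediate filament desmin that ties Z-discs together (ENSMUSG00000026208, chromosome 1, 75360329 to 75368579, plus strand), was abundant in every library. Its lowest, median and highest levels were 24518, 30205 and 32831 normalized counts in activated cells of pregnant mice, against 24096, 28124 and 33411 in the 3 non-activated libraries of pregnant mice, and the change of 0.04 ± 0.13 (SE, log2 scale) did not pass (limma adjusted p = 0.810). In virgin mice the activated libraries held 24546 to 31717 and the non-activated ones 20014, 17133 and 21659, which did not overlap, and the change of 0.57 ± 0.13 passed (adjusted p = 9.12e-04). The direction of Des turned when the trend with genomic span was removed, and Des then passed as lower in both comparisons. Its change was then -0.49 in virgin mice (limma adjusted p = 0.00149) and -0.90 in pregnant mice (limma adjusted p = 2.69e-06). With total-count scaling the change in pregnant mice passed and kept its sign.

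Xirp2, which encodes a protein with Xin repeats that binds actin filaments and is known from the junctions of striated muscle (ENSMUSG00000027022, chromosome 2, 67446002 to 67526614, plus strand), went opposite ways in the 2 comparisons. It had 19.7, 30.4, 43.5, 85.0, 35.8 and 37.4 normalized counts in activated cells of pregnant mice and 0, 40.0 and 0 in non-activated cells of pregnant mice, while in virgin mice it had 43.2, 25.6, 17.1, 15.9, 45.2 and 14.8 in activated cells and 76.6, 155 and 105 in non-activated cells. The 3 non-activated libraries of virgin mice were above all activated libraries of virgin mice, and the groups overlapped in pregnant mice. The log2 change was 3.50 ± 0.87 in pregnant mice (SE, limma adjusted p = 0.0014) and -2.10 ± 0.87 in virgin mice (adjusted p = 0.0363). In pregnant mice it was 2.61 without non-activated replicate 1 or 3, and 5.28 without replicate 2, a value that depends on the pseudocount because the remaining 2 libraries held no read of Xirp2. The call was lost with a spread estimated by group. In virgin mice the call was lost in 10 of 19 alternatives, among them those without activated replicate 3, 4 or 6 and those without non-activated replicate 2 or 3, where the change lay between -2.12 and -1.84. It was -1.26 when the trend with genomic span was removed.

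Counted together, 6 of the 9 members with values rose and 0 fell in activated cells of pregnant mice, where 40.3% of 10751 genes tested rose and 32.6% fell. In virgin mice 4 rose and 1 fell, where 39.0% rose and 33.6% fell. The median log2 change over the 9 was 2.09 in pregnant and 1.61 in virgin mice, beside 0.21 and 0.17 over all genes tested. All 9 passed the filter on low values in this fit, in which the non-activated groups of 3 libraries set the number of libraries required. The authors' deposited table, set beside these values, gave Myh3 log2 fold changes of 6.90 in pregnant and 6.55 in virgin mice, and Chrna1 2.07 and 2.79. For members with libraries at 0 the authors' deposited table gave smaller changes than the fit: Actc1 6.46 in pregnant and 6.41 in virgin mice, Xirp2 1.68 and Myl1 3.77 in pregnant mice. In virgin mice the authors' deposited table gave adjusted p = 0.0167 for Myh8 and 0.0372 for Myl1, which pass 0.05 there and did not pass in the fit. The authors' deposited table gave no adjusted p for Actc1 or Xirp2.

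**Figure D3:**
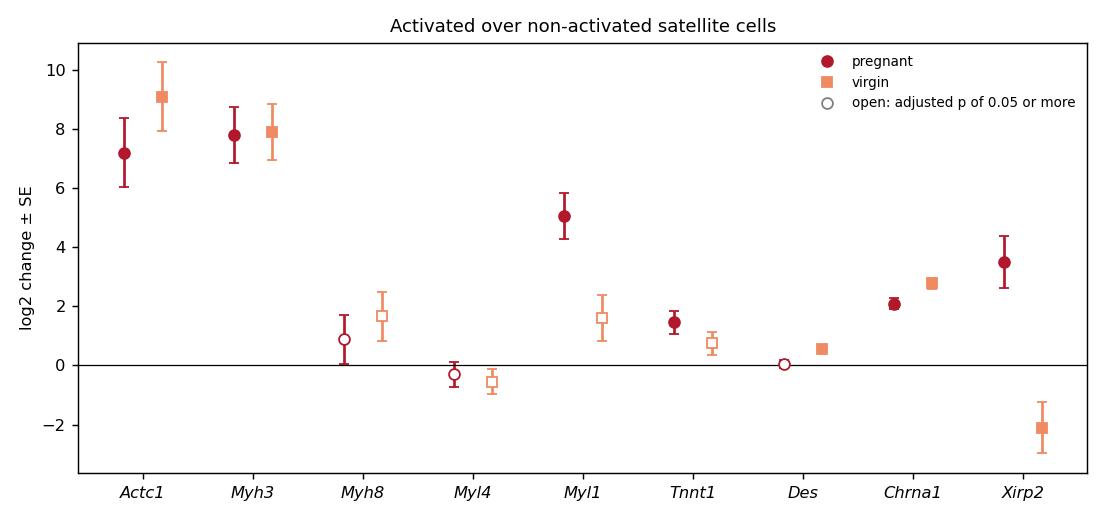
Log2 change (± SE) of the 9 genes in activated over non-activated cells, with circles for pregnant and squares for virgin mice; filled symbols passed limma's test at an adjusted p under 0.05. Actc1 and Myh3 have the highest changes, between 7.19 and 9.09, Chrna1 has the narrowest error among those above 2, and Xirp2 lies at 3.50 in pregnant and -2.10 in virgin mice.

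Other genes of the same structures were counted from lists, with the leading called genes of each named. The counts stand beside all genes tested, of which 40.3% rose and 32.6% fell in pregnant mice and 39.0% rose and 33.6% fell in virgin mice. In the thick filament list, 4 rose and 1 fell of 9 tested in pregnant mice and 2 rose and 1 fell in virgin mice. Myom2, of the M-band, had a log2 change of 3.11 and Mybpc2, the fast myosin-binding protein C, one of 3.03 in pregnant mice. In virgin mice Myl6b, a light chain of slow muscle, led at 3.58 and Myh1, the fast IIx myosin, followed at 0.88, whose call was lost without activated replicate 1 or without non-activated replicate 2 or 3. Mybpc1, the slow myosin-binding protein C, fell in both (-1.59 in pregnant and -2.62 in virgin mice). Leaving out single non-activated libraries gave Myom2 3.79, 1.58 and 3.97 (without replicates 1, 2 and 3), Mybpc2 4.59 and 1.97 (without replicates 1 and 3), and Myl6b 2.54 and 4.97 (without replicates 1 and 3).

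On the thin filament, 4 rose and 3 fell of 10 in each comparison, near the shares over all genes tested. Tnni2, the fast troponin I, rose with a log2 change of 3.16 in pregnant and 4.09 in virgin mice, joined by Lmod3, which nucleates actin, at 3.09 in pregnant mice, and by Tpm2, beta-tropomyosin, at 3.68 in virgin mice. Nebl, which encodes nebulette, fell in both (-5.08 in pregnant and -4.58 in virgin mice), and Lmod2, another leiomodin, fell in both (-1.33 in pregnant and -0.88 in virgin mice). Lmod3 lost its call without non-activated replicate 1 or 2, at 2.35 in both, and was 4.58 without replicate 3. The 4.58 depends on the pseudocount, because the remaining libraries held no read of Lmod3. Tnni2 was 4.24 without non-activated replicate 2 in pregnant mice, and in virgin mice it was 2.26, 4.97 and 5.04 without non-activated replicates 1, 2 and 3. In virgin mice the call of Lmod2 was lost without non-activated replicate 2 or 3.

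Among Z-disc and titin genes, 7 rose and 2 fell of 12 in pregnant mice and 8 rose and 1 fell in virgin mice. Synpo2l, a Z-disc protein, and Klhl41, which stabilises sarcomere proteins, led both, with log2 changes of 4.09 and 3.79 in pregnant and 4.00 and 6.18 in virgin mice. Flnc, filamin C, fell in both (-0.66 in pregnant and -0.38 in virgin mice), and Actn2, alpha-actinin 2, fell by 1.30 in pregnant mice. Synpo2l was 4.93 without non-activated replicate 1 in pregnant mice, and 2.23, 4.64 and 5.14 without non-activated replicates 1, 2 and 3 in virgin mice. Klhl41 was 4.83 and 7.61 without non-activated replicates 1 and 2 of virgin mice, and Flnc lost its call there without replicate 1 or 3. Of the intermediate filament and costamere genes, which include none of the members, 6 rose and 1 fell of 10 in pregnant mice and 6 rose and 2 fell in virgin mice. Nes, nestin of immature muscle, rose by 3.76 in pregnant and 4.73 in virgin mice and Vim, vimentin, by 1.30 and 2.04, while Dmd, dystrophin, fell in both (-4.15 in pregnant and -4.60 in virgin mice). Sgcd, a sarcoglycan, fell by 3.07 in virgin mice. Dmd and Sgcd changed sign when the trend with genomic span was removed.

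At the synapse, 10 of 13 genes rose and 2 fell in pregnant mice, and 8 rose and 2 fell in virgin mice. Chrnd, the delta subunit of the acetylcholine receptor, rose by 6.70 ± 0.80 (SE) on the log2 scale in pregnant mice, to 771 mean normalized counts against 14.01 in non-activated cells, and by 6.86 ± 0.80 in virgin mice, to 1135 against 13.7 in non-activated cells. Dok7, the adaptor that activates MuSK, rose by 5.35 ± 0.89 in pregnant and by 3.91 ± 0.89 in virgin mice. Musk itself, the receptor kinase that gathers acetylcholine receptors, fell in both (-3.33 in pregnant and -3.55 in virgin mice), and Utrn, utrophin, fell in both (-2.52 in pregnant and -2.71 in virgin mice). Utrn turned to 0.18 in virgin mice when the trend with genomic span was removed. Chrnd was 7.80 and 5.28 without non-activated replicates 2 and 3 of pregnant mice, and 5.73 and 7.58 without non-activated replicates 1 and 2 of virgin mice. Dok7 was 6.09, 6.72 and 3.26 without non-activated replicates 1, 2 and 3 of pregnant mice.

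The myogenic regulators moved in both directions, with 5 higher and 4 lower of 10 in pregnant mice and 4 higher and 4 lower in virgin mice. Myog had 6151 ± 2752 normalized counts in activated cells of pregnant mice (SD, n = 6) against 126 ± 70.2 in non-activated cells (SD, n = 3), a log2 change of 5.66 ± 0.52 (SE), and its change was 4.80 ± 0.52 in virgin mice. Myod1 rose by 1.07 in pregnant and by 2.89 in virgin mice, Myf6, a late myogenic factor, rose by 2.82 in pregnant mice, and Pax3 and Pax7 fell in both. The log2 change of Pax3 was -2.89 in pregnant and -2.98 in virgin mice, and that of Pax7 -0.76 and -1.45. Myod1 and Pax7 changed sign in pregnant mice when the trend with genomic span was removed. Myod1 then passed as lower (-0.40, limma adjusted p = 0.0125), and Pax7 did not pass. Vcam1, used in the sort, fell by 0.68 in pregnant mice, a call lost with total-count and with upper-quartile scaling. In virgin mice Vcam1 had -0.09 ± 0.18, which did not pass (limma adjusted p = 0.676). Myog was 5.05 without non-activated replicate 1 of pregnant mice, and 5.56 and 4.03 without non-activated replicates 2 and 3 of virgin mice. In pregnant mice Myf6 lost its call without non-activated replicate 1 or 3, at 2.13, and was 4.19 without replicate 2. The 4.19 depends on the pseudocount, because the remaining libraries held no read of Myf6.

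Of 9 genes of myoblast fusion, 6 rose in pregnant and 5 in virgin mice and 0 fell. Tmem8c, which encodes the fusion protein myomaker, rose by 4.00 and by 4.86, and Cav3, muscle caveolin, by 2.26 and by 3.18. Of 11 genes of excitation-contraction coupling, 6 rose in pregnant and 7 in virgin mice, among them Srl, sarcalumenin, at 2.91 and 2.15, Cacnb1 at 2.70 in pregnant and Cacng1 at 3.83 in virgin mice, both subunits of the calcium channel of the T-tubule. Jph1, junctophilin 1, fell in both (-1.66 in pregnant and -1.73 in virgin mice). Of 6 genes of adult myofibre metabolism, 4 rose and 1 fell in pregnant mice and 2 rose and 2 fell in virgin mice. Eno3, muscle enolase, rose by 4.80 and by 5.05, Pgam2, muscle phosphoglycerate mutase, by 3.44 in pregnant mice and Pfkm, phosphofructokinase, by 0.62 in virgin mice. Ampd1, muscle AMP deaminase, fell in both (-2.46 in pregnant and -4.19 in virgin mice), and Pygm, glycogen phosphorylase, fell by 0.64 in virgin mice. Cav3 lost its call without non-activated replicate 3 of pregnant mice, at 0.46, and was 3.71 without replicate 1, and Tmem8c was 5.89 and 3.95 without non-activated replicates 2 and 3 of virgin mice. In pregnant mice Cacnb1 was 2.01 and 3.92 without non-activated replicates 2 and 3, Eno3 was 4.15 without replicate 3, Pgam2 was 2.66 without replicate 1 or 2 and 4.996 without replicate 3, and Ampd1 was -3.47 and -1.59 without replicates 1 and 2. The 4.996 of Pgam2 depends on the pseudocount, because the remaining libraries held no read of it. With a spread estimated by group, Mybpc2, Lmod3, Actn2, Myf6, Cav3, Pgam2 and Ampd1 lost their calls in pregnant mice. Myh1, Lmod2, Tnnt3 and Flnc lost theirs in virgin mice. That setting called 6044 genes in pregnant and 6947 in virgin mice, beside 7832 and 7806.

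Markers of some other cell types moved with activation too. Summed normalized counts of the 5 leukocyte markers with values ran from 1571 to 7041 in activated cells of pregnant mice, 774 to 1158 in activated cells of virgin mice, 67.7 to 189 in non-activated cells of pregnant mice and 163 to 284 in non-activated cells of virgin mice. Those of 10 markers of fibro-adipogenic progenitors, the matrix-producing cells of muscle, ran from 102074 to 148691 and 57113 to 89544 in the activated groups of pregnant and virgin mice and from 22767 to 45583 and 27653 to 35464 in the non-activated groups. The 8 Schwann cell markers summed to 4285 to 6664 and 3574 to 5149 in the same activated groups and to 2169 to 2484 and 2441 to 3694 in the non-activated ones, and smooth muscle and pericyte markers rose in 8 of 13 in pregnant and in 7 of 13 in virgin mice, where 1 fell. The Schwann cell sums overlapped in virgin mice. Sums of 8 endothelial markers overlapped in both comparisons, at 1459 to 5642 in activated and 2056 to 3019 in non-activated cells of pregnant mice, and 2215 to 3317 in activated and 2141 to 4093 in non-activated cells of virgin mice. Tested singly, 4 of these 8 were higher and 1 lower in pregnant mice, and 3 higher and 1 lower in virgin mice. Over all genes tested 40.3% were higher and 32.6% lower in pregnant mice, and 39.0% and 33.6% in virgin mice. No defining marker with a value was at 0 in a whole group. The part of these cells in the changes of the muscle genes was not tested.

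Whether pregnancy went with a different level of these genes was asked first in activated cells, where both groups share a library kit. None of the 9 members passed: limma called 0 of 9 at an adjusted p under 0.05, with 2 at an unadjusted p under 0.05, where 14.0% of 10499 genes tested were higher and 13.4% lower in pregnant mice. Actc1 averaged 1552 ± 874 normalized counts in activated cells of pregnant mice and 2461 ± 479.5 in activated cells of virgin mice (SD, n = 6 each), with a log2 change of -0.93 ± 0.39 (SE, 95% interval -1.77 to -0.08, adjusted p = 0.0919). Chrna1 averaged 5300 ± 922 in activated cells of pregnant mice and 6763 ± 1463 in those of virgin mice (SD, n = 6 each), with -0.34 ± 0.14 (SE, 95% interval -0.64 to -0.05, adjusted p = 0.0775), and it passed without activated replicate 6 of pregnant mice (adjusted p = 0.0409). The range over leaving out any 1 library was 0.0409 to 0.155. Myh3 had -0.67 ± 0.40 (95% interval -1.52 to 0.18) and Myl1 -0.33 ± 0.34 (-1.07 to 0.40). The intervals of Xirp2 (-0.13 to 1.38), Myh8 (-0.79 to 1.11), Tnnt1 (-0.37 to 0.68), Myl4 (-0.55 to 0.53) and Des (-0.19 to 0.21) also held 0.

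Paralogues were also compared within a library. The log2 ratio of Myh8 to Myh3 averaged -4.59 ± 0.62 in activated cells of pregnant mice and -5.42 ± 0.64 in activated cells of virgin mice (SD, n = 6 each). The difference of 0.83 had an exact two-sided permutation p = 0.0498, and p = 0.0996 when adjusted over the 2 ratios. The ratio of Myl4 to Myl1 averaged 0.01 ± 0.41 and -0.31 ± 0.22 in those groups, a difference of 0.33 (exact permutation p = 0.104, adjusted p = 0.104). Neither passed, and the smallest p this design allows is 0.00216. The ratio of Tnnt2 to Tnnt1 could not be formed.

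Among the muscle gene lists, the synapse list had the most calls for pregnancy in activated cells, with 5 higher of 13 tested and 0 lower. Over all genes tested 14.0% were higher and 13.4% lower. Ache, the esterase that ends the synaptic signal, was higher by 0.55 ± 0.15 (SE, limma adjusted p = 0.0159) and Utrn by 0.38 ± 0.11 (adjusted p = 0.0258), whose call was lost without activated replicate 4 of pregnant mice. In a fit of all 4 groups, Ache, Utrn, Unc45b, Sgcd, Cav3, Tpm2, Bin1 and Vcam1 did not pass. Of the Z-disc genes 1 was higher, Flnc by 0.46, and 3 were lower, led by Unc45b, a myosin chaperone, at -0.59 and Ankrd1, a titin-binding repeat protein, at -0.41. The call of Unc45b was lost without activated replicate 2 of virgin mice. Of intermediate filament and costamere genes Sgcd was higher by 1.13 and Synm, synemin, by 0.72. Lower were Tpm2 at -0.42, the single call of 10 on the thin filament, and of fusion genes Cav3 at -0.72 and Bin1, which shapes T-tubules, at -0.33. The calls of Tpm2 and Bin1 rested on several libraries and were lost in 13 and 6 of 22 alternatives. The thick filament, myogenic regulator, excitation-contraction coupling and metabolism lists had 0 calls by limma and 1, 1, 2 and 1 genes at an unadjusted p under 0.05. Myog averaged 6151 ± 2752 in activated cells of pregnant mice and 8645 ± 765 in activated cells of virgin mice (SD, n = 6 each) and did not pass (adjusted p = 0.0934), and it passed without activated replicate 4 of pregnant mice. Neither Myod1 (adjusted p = 0.599) nor Pax7 (0.770) nor Tnnt3 (0.413) passed, while Vcam1 was higher by 0.39 ± 0.12 (adjusted p = 0.0278), a call lost without activated replicate 4, 5 or 6 of pregnant mice or 2 or 4 of virgin mice.

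In the same comparison all 5 leukocyte markers with values were higher in pregnant mice, with Cd74, a class II chaperone, at 2.15 and Lyz2, lysozyme, at 1.81 on the log2 scale. Of 10 markers of fibro-adipogenic progenitors 8 were higher, led by Pi16 at 1.98 and Col1a1 at 1.11, and Cd34 was lower (-0.57), a call lost in 8 of 22 alternatives, among them those without activated replicate 3, 5 or 6 of either group. Of 13 smooth muscle and pericyte markers 3 were higher, led by Cspg4 at 0.80 and Mylk at 0.70, and in the fit of all 4 groups Cd74, Lyz2, Pi16, Cspg4, Mylk and Cd34 did not pass. Endothelial and Schwann cell markers had 0 calls of 8 each, with 0 at an unadjusted p under 0.05. The part of these cells in the differences above was not tested.

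**Figure D4:**
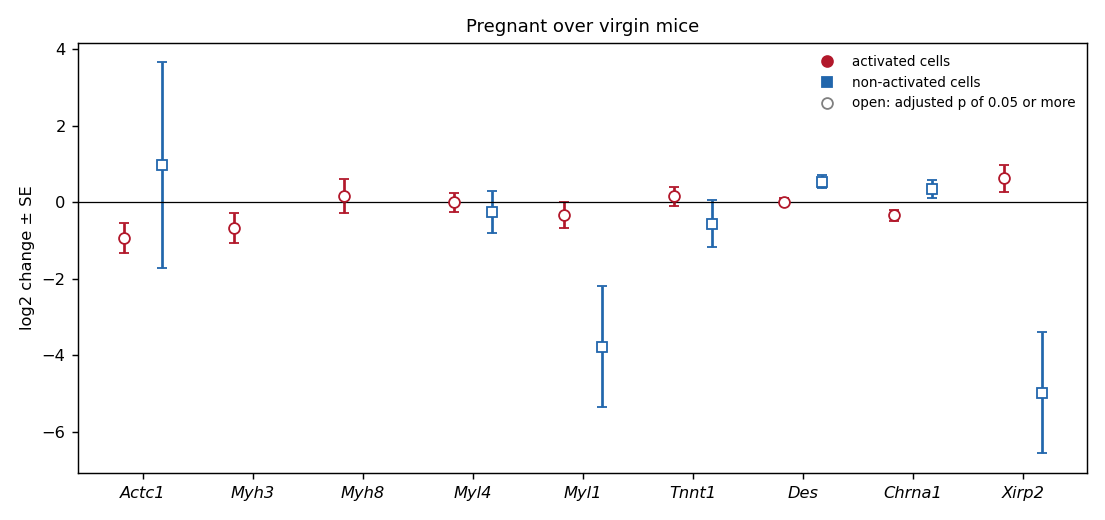
Log2 change (± SE) of the 9 genes in pregnant over virgin mice, with circles for activated and squares for non-activated cells; open symbols did not pass limma's test at an adjusted p under 0.05, and no symbol is filled. Changes in activated cells lie between -0.93 and 0.62, and Myl1 and Xirp2 in non-activated cells lie at -3.78 and -4.98 with wide errors.

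In non-activated cells, which also share a kit, Myh3 and Myh8 were below the filter and 7 members were tested. None passed: limma called 0 of 7, with 3 (Xirp2, Des and Myl1) at an unadjusted p under 0.05, where 4.62% of 10447 genes were called in either direction. Xirp2, at 0, 40.0 and 0 normalized counts in pregnant and 76.6, 155 and 105 in virgin mice, had -4.98 ± 1.58 (SE, adjusted p = 0.0937) and passed without non-activated replicate 2 of pregnant mice (adjusted p = 0.0277). Des had 0.54 ± 0.17 (adjusted p = 0.1004), with all 3 libraries of pregnant mice above the 3 of virgin mice. Myl1 had -3.78 ± 1.58 (adjusted p = 0.215), and the 95% interval ran from -7.16 to -0.40. In the fit of all 4 groups these 3 passed, with limma adjusted p = 0.00188 for Xirp2, 0.0184 for Des and 0.00599 for Myl1, and voom called Des (adjusted p = 0.0486). The authors' deposited table gave Des 0.54 (adjusted p = 0.00294) and Myl1 -2.44 (adjusted p = 0.0195), which pass 0.05 there. Its adjusted p for Chrna1 (0.241), Tnnt1 (0.726) and Myl4 (0.838) did not pass. Actc1 (0.97 ± 2.68), Myl4 (-0.26 ± 0.55), Tnnt1 (-0.56 ± 0.62) and Chrna1 (0.35 ± 0.24) had intervals that held 0. Among the sarcomere lists Flnc was higher by 0.74 and Mybpc1 lower (-0.67), and among the regulators Myod1 was higher by 1.92 ± 0.16, at 5039 ± 465 normalized counts in pregnant and 1332 ± 61.4 in virgin mice (SD, n = 3 each), and Pax7 was lower (-0.64). Vcam1 was higher by 0.98. Myog, at 46.3, 155 and 178 in pregnant and 310, 889 and 106 in virgin mice, was not among limma's calls. The authors' deposited table gave Myog -1.79 (adjusted p = 0.0208). The calls of Flnc, Mybpc1, Pax7 and Vcam1 were each lost in 3 to 5 of the fits with 1 library left out.

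The difference between the activation changes of pregnant and virgin mice was tested as an interaction, which called 15.1% of 10751 genes. Of the members 2 were called. Xirp2 had 5.60 ± 1.23 (SE, limma adjusted p = 0.00661), or 4.71 without non-activated replicate 1 or 3 of pregnant mice and, depending on the pseudocount as above, 7.39 without replicate 2, and lost its call with a spread estimated by group. Myl1 had 3.44 ± 1.10 (adjusted p = 0.0426), 4.96 and 2.32 without non-activated replicates 2 and 3 of pregnant mice, and lost its call in 15 of 27 alternatives, those without activated replicates 2, 4, 5 or 6 of pregnant mice, activated replicates 3 to 6 of virgin mice, non-activated replicates 1 or 3 of pregnant mice and non-activated replicates 1 or 2 of virgin mice among them. Des had -0.53 ± 0.19 (adjusted p = 0.0663) and Chrna1 -0.70 ± 0.27 (adjusted p = 0.0837), which did not pass. Both passed without non-activated replicate 1 of pregnant mice, Des also without activated replicate 1 of virgin mice and with voom, and Actc1 passed without non-activated replicate 2 of virgin mice. Actc1 (-1.90 ± 1.65), Myh3 (-0.09 ± 1.35), Myh8 (-0.78 ± 1.15), Tnnt1 (0.71 ± 0.56) and Myl4 (0.26 ± 0.60) did not pass either. From the lists, Sgcd (2.68), Myh1 (1.55) and Mybpc1 (1.03) had a higher change in pregnant mice, as had Pax7 (0.69), and Myod1 (-1.83), Lrp4 (-1.15), a synaptic co-receptor of MuSK, Ankrd1 (-0.91) and Actn3 (-0.76), the fast alpha-actinin, a lower one. Sgcd was 1.96 and 3.30 without non-activated replicates 1 and 3 of pregnant mice, Actn3 lost its call without non-activated replicate 2 of virgin mice, and the calls of Myh1 and Pax7 were lost in 16 and 14 of 27 alternatives. Since the interaction uses all 4 groups, it shares its libraries with the comparisons above, and activation and the kit cannot be told apart in it either.

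Within the activated groups the libraries differed, and several of the sarcomere members moved together. Activated replicate 3 of pregnant mice was the lowest of its 6 for Actc1, Myh3, Myl4, Myl1 and Chrna1, and for Myog. Actc1 spanned 7.01-fold over the 6 libraries of pregnant mice and 1.60-fold over the 6 of virgin mice, while Chrna1 spanned 1.59-fold and 1.71-fold and Des 1.34-fold and 1.29-fold. After subtracting group means, over the 12 activated libraries, which share a kit and differ in depth, Actc1 and Myog had a Pearson r of 0.99, with 1.00 in pregnant and 0.93 in virgin mice. Myh3 and Myl4 had 0.93, Actc1 and Myl1 0.91 and Myh3 and Chrna1 0.81. Weaker pairs were Myh8 and Tnnt1 at 0.53 and Actc1 and Xirp2 at 0.27. Myh3 and Myog had 0.78, with 0.91 in pregnant and 0.56 in virgin mice. Des had -0.22 with Myh3 (0.06 in pregnant and -0.69 in virgin mice) and Xirp2 had 0.26 with Myh3 (0.03 in pregnant and 0.57 in virgin mice). These are descriptions with no test.

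The 5 genes most like Myh3 among 10499, by the same measure, were D430041D05Rik at 0.96, Lmod3 at 0.96, Synpo2l at 0.95, Klhl40 at 0.95 and Tnni2 at 0.95. Those most like Chrna1 were Cdk5r1 at 0.97, Sept9 at 0.95, Dapk2 at 0.95, Vasp at 0.95 and Rcn1 at 0.94. The lists of 5 held no gene in common, although Myh3 and Chrna1 themselves had a Pearson r of 0.81 by the same measure.

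**Figure D5:**
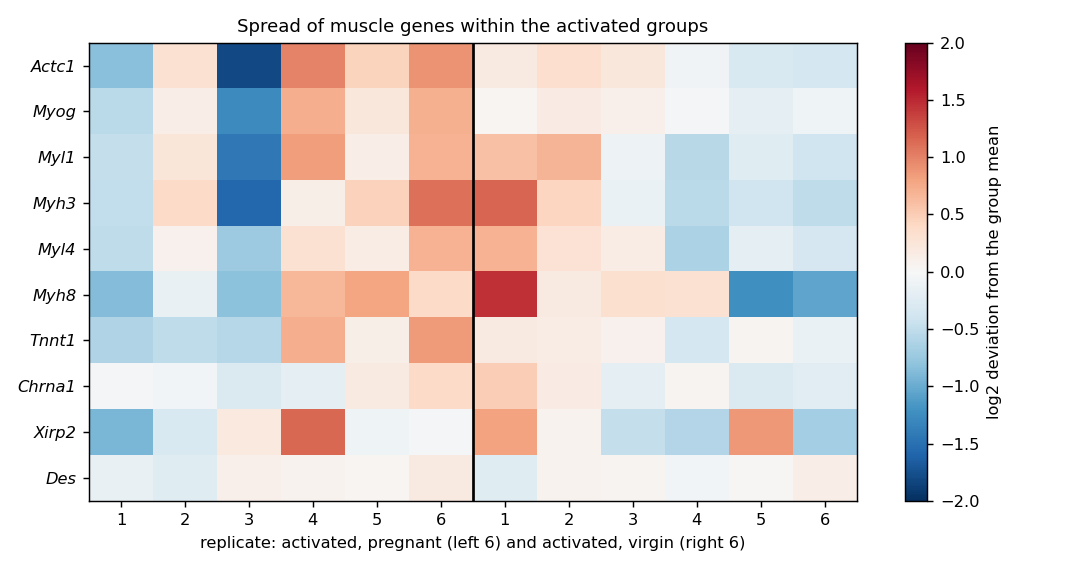
Deviation of log2(normalized count + 1) from the group mean for the members with values and Myog in each activated library, pregnant mice left and virgin mice right of the line. Replicate 3 of the pregnant group is the lowest for Actc1, Myog, Myl1, Myh3 and Myl4, whereas Des deviates little in any library.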

How the data were processed

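RNA of sorted satellite cells was sequenced in 18 libraries used here. The deposited table gives the authors' raw counts per gene and normalized counts (raw counts over a size factor per library), together with each comparison's log2 fold change and adjusted p-value as the authors obtained them. The submitters' processing notes name cutadapt 1.12, TopHat2 2.0.14, HTSeq 0.6.0, DESeq2 1.22.1 and GRCm38; settings, and whether counting used strand, are not given in the sources used here. Des, Xirp2, Myl4 and Actc1 overlap genes on the other strand, so their counts are uncertain to that extent. In all, 6 per-sample columns of 3 quadriceps libraries were not used.

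Normalized counts were taken as log2(value + 1), and fold changes are on that scale. Differences of mean logs can exceed the log of the ratio of means where single libraries are at or near 0. Genes reaching 10 normalized counts in as many libraries as the smallest group holds were tested with limma 3.58.1 (R 4.3.3, trended prior), and p-values were Benjamini-Hochberg adjusted across every gene in the fit, calling those under 0.05. Activation and the interaction were fitted over all 4 groups, pregnancy over the 2 groups compared. Count models were not run, a choice made because the table marks genes without values by a symbol. The raw counts of the genes with values were whole numbers and would have allowed one. The voom alternative was fitted to these raw counts. The test was tried on simulated data. Ratios within a library used exact permutation tests (scipy 1.17.1).

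Alternatives were other pseudocounts, filters, scalings, voom, a spread by group, a replicate block, removal of a trend with genomic span, other sample sets and leaving out each library. Same-numbered libraries did not deviate together. The members and 15 gene lists were chosen with earlier results of these data known, and 1 gene of the myogenic regulator list is not reported here and not counted in it. Besides the members, the text names the genes with the highest and lowest called changes of each pathway list, those of other-cell-type lists for activated cells of pregnant against virgin mice, and Myog, Myod1, Pax7, Vcam1 and Tnnt3.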

Additional observations from a re-analysis of the deposited data

Results flagged for a closer look

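Of 126 sets of 6 activated libraries checked, 9 had 1 library far from the other 5, and chance alone gives about 1 in 20. In activated cells of pregnant mice, replicate 4 stood apart for Xirp2 (85.0 normalized counts), Dmd (2359), Mylk (1912) and Pi16 (248), replicate 6 for Myl6b (72.9), and replicate 2 for Lyz2 (3406). In activated cells of virgin mice, replicate 1 stood apart for Myh8 (57.9), Myh1 (395) and Sgcd (23.6).

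The activation change differed between pregnant and virgin mice by the limma interaction test for 11 named genes. On the log2 scale, pregnant minus virgin, the difference was 5.60 for Xirp2, 3.44 for Myl1, 2.68 for Sgcd, 1.55 for Myh1, 1.39 for Cspg4, 1.03 for Mybpc1 and 0.69 for Pax7. It was -1.83 for Myod1, -1.15 for Lrp4, -0.91 for Ankrd1 and -0.76 for Actn3.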

How the results depend on the processing

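The replicate block gave 6 and 4 members called for activation in pregnant and virgin mice, 0 and 0 for pregnancy in activated and non-activated cells and 2 for the interaction, and for the 2 paralogue ratios an adjusted p of 0.0625 each. The numbers did not pair the libraries, and under the block the fall of Xirp2 in virgin mice was no longer called, which made 4 of the 5. The ratios of Actc1 to Acta1 and of Tnnt2 to Tnnt1 could not be computed.

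Total-count and upper-quartile scaling moved the median log2 change of all genes in activated over non-activated cells to 0.50 and 0.46 in pregnant mice, beside 0.21, and to 0.36 and 0.38 in virgin mice, beside 0.17. With total-count scaling the share of called genes that were higher was 67.2% for the interaction, beside 52.0%, and 45.9% for pregnancy in non-activated cells, beside 62.3%. Removing the trend with genomic span turned these changes round: in pregnant mice Des (-0.90), Dmd (0.042), Myod1 (-0.40) and Pax7 (0.11), in virgin mice Des (-0.49), Dmd (0.20), Sgcd (0.83), Tnnt1 (-0.058) and Utrn (0.18), and for pregnancy in activated cells Pax7 (-0.036). Of these, Des in pregnant and virgin mice and Myod1 in pregnant mice passed as lower. Others that changed sign were near 0: Des (-0.028, replicate block, activation in pregnant mice), Vcam1 in virgin mice (0.11 and 0.12, total-count and upper-quartile scaling), Des (-0.0006, upper quartile) and Myl4 (0.0043, voom) for pregnancy in activated cells, and Myh3 in the interaction (0.087, pseudocount 0.5). The cause was not tested.

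The fit of the 2 groups called 8 members in virgin mice, and 8036 of 10626 genes tested. The fit of all 4 groups called 578 genes for pregnancy in activated cells (481 higher and 97 lower), beside 2883 (1473 higher and 1410 lower), and 3 members (Xirp2, Des and Myl1) and 2485 genes (48.7% of them higher) in non-activated cells, beside 0 and 483 (62.3% higher), where voom called 1 member, Des. In the interaction, 1 member and 1667 genes were called with a pseudocount of 5, and 0 members and 398 genes with a spread by group, beside 2 and 1620.

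Leaving out 1 library at a time, activation called 7604 to 7822 genes and 6 of 9 members each time in pregnant mice, and 7523 to 7675 genes and 4 to 6 members in virgin mice. Pregnancy called 1959 to 2836 genes and 0 to 1 members in activated cells and 237 to 441 genes and 0 to 1 members in non-activated cells, and the interaction 1297 to 2301 genes and 1 to 3 members. The ratio difference ran from 0.66 to 1.00 for Myh8 to Myh3 and from 0.18 to 0.43 for Myl4 to Myl1, which passed without activated replicate 4 of pregnant mice (exact permutation, adjusted p = 0.0173). Signs changed for activation in pregnant mice of Des (-0.078 to 0.16), Myh8 (-0.41 to 1.65) and Myl4 (-0.65 to 0.28) and in virgin mice of Vcam1 (-0.25 to 0.061). They changed for pregnancy in activated cells of Des (-0.0395 to 0.056), Myh8 (-0.084 to 0.45), Myl4 (-0.15 to 0.14), Pax7 (-0.046 to 0.12) and Tnnt1 (-0.016 to 0.27), in non-activated cells of Actc1 (-0.11 to 3.12), Myl4 (-0.84 to 0.10) and Tnnt1 (-0.99 to 0.046), and in the interaction of Myh3 (-1.63 to 1.28) and Myl4 (-0.11 to 0.83). With 3 non-activated libraries a group and single libraries at 0, the size of changes of Actc1, Myh3, Myl1 and Xirp2 is limited by depth.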
